A study of Mus musculus with 6 samples.

Results

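The genes described here encode the ADAM, ADAMTS, ADAMTSL and MMP families and their inhibitors, the TIMPs, in the heart ventricle of obese mice treated with Tributyrin or vehicle. They were chosen by name, as the protein-coding genes whose GENCODE M21 symbol begins with Adam, Adamts, Adamtsl, Mmp or Timp and goes on with a number. The rule found 83 genes among the 54232 Ensembl identifiers of the count files: 33 ADAM, 19 ADAMTS, 5 ADAMTSL, 22 MMP and 4 TIMP genes. The study fed wild-type C57BL/6J mice a western diet (WD) and needle-fed them from the end of week 15, for 3 weeks, with Tributyrin, a triglyceride of butyrate, at 5 g/kg of body weight or with vehicle, which the labels call PBS. Ventricle RNA of 3 WD + Tributyrin mice and 3 WD + Vehicle mice was sequenced, and both groups carried the same diet, strain and genotype. The age of these mice is not given in the labels. The comparison asks which transcripts of the heart differ with Tributyrin in mice on this diet.

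Most of these families are zinc-dependent proteases. ADAMs are mostly anchored in the membrane and release the outer parts of other membrane proteins, such as Notch, cytokines and growth factors. ADAMTS proteases and MMPs act on the extracellular matrix, where they process procollagen and cut proteoglycans, collagens and basement membrane. ADAMTSL proteins have the ancillary domains of ADAMTS proteases without the protease, and several of them bind fibrillin microfibrils. TIMPs bind the active site of MMPs, and *Timp3* also blocks ADAMs and ADAMTSs. In the heart these genes are best known from the remodelling of the matrix under load and after infarction.

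The part that the proteases share, and that the rule on symbols did not use, is the stretch of coding sequence for the metzincin zinc-binding motif. It was searched as codons in the GENCODE M21 coding sequences (GRCm38) and spans 33 bases. The sites of the genes that carry the results below are printed as coding strand, 5′ to 3′, and capitals mark the codons of the fixed residues, which are 3 histidines, a glutamate and a glycine. The MMPs come first, with the membrane-type *Mmp15* and *Mmp14*, the gelatinase *Mmp2* and the stromelysin *Mmp3*.
*Mmp15*, chr8:95368585-95368617, plus strand, exon 5: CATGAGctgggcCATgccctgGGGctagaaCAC
*Mmp14*, chr14:54437627-54437659, plus strand, exon 5: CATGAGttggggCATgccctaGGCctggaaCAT
*Mmp2*, chr8:92839279-92839311, plus strand, exon 8: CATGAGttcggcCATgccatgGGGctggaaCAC
*Mmp3*, chr9:7449775-7449807, plus strand, exon 5: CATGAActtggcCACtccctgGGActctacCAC

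Next are the ADAM with the highest level in these hearts (*Adam9*), the main sheddases (*Adam10* and *Adam17*) and the ADAM whose groups did not overlap (*Adam8*). The site of *Adam10* crosses a splice junction, so its coordinates include an intron.
*Adam9*, chr8:24990326-24990358, minus strand, exon 11: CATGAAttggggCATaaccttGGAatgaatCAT
*Adam10*, chr9:70754296-70761585, plus strand, exons 9 and 10: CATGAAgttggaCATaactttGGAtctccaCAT
*Adam17*, chr12:21336732-21336764, minus strand, exon 12: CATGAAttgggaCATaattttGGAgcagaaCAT
*Adam8*, chr7:139987893-139987925, minus strand, exon 11: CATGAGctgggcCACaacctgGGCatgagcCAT

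The last set holds the procollagen N-proteinases *Adamts2*, *Adamts3* and *Adamts14*, shown because 1 of the 3 had a lower mean with Tributyrin, and the proteoglycanase *Adamts1*, which has an asparagine codon in place of the glycine codon. All 4 sites cross a splice junction.
*Adamts2*, chr11:50775403-50776134, plus strand, exons 7 and 8: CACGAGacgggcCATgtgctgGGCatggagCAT
*Adamts3*, chr5:89707433-89707818, minus strand, exons 8 and 9: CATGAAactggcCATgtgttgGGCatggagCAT
*Adamts14*, chr10:61225465-61227123, minus strand, exons 7 and 8: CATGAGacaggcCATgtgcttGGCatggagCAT
*Adamts1*, chr16:85799191-85799545, minus strand, exons 3 and 4: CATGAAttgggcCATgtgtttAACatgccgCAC

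The motif was found in 22 of 22 MMPs, 20 of 33 ADAMs and 13 of 19 ADAMTSs, and in no ADAMTSL or TIMP. A form with asparagine was found in 5 further ADAMTSs (*Adamts1*, *Adamts4*, *Adamts9*, *Adamts15* and *Adamts20*), and *Adamts8* matched neither form in the coding sequence searched. Among 21562 protein-coding genes with a complete coding sequence, 68 (0.315%) held the motif and 55 of these were members, while the 5 genes with the asparagine form (0.0232%) were all ADAMTSs. The codons of the cysteine switch, the propeptide segment that keeps MMPs inactive, were found in 16 genes (0.0742%), all of them MMPs. Of the 12 ADAMs measured well enough to test, 9 held the zinc motif, and the others were *Adam11*, *Adam22* and *Adam23*, which are known as adhesion proteins without protease activity.

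The sites also differed in how the gene cuts them. Of the sites listed, 22 of 22 in MMPs and 19 of 20 in ADAMs lay within 1 exon, whereas 17 of 17 in ADAMTSs crossed a splice junction. *Adamts2* and *Adamts14* differed at 3 of the 33 bases, *Adamts3* differed from each of them at 4, *Mmp14* and *Mmp15* differed at 6, and *Adam10* and *Adam17* at 7. The median difference was 9 bases between ADAMs, 10 between MMPs and 12 between ADAMTSs. *Adam1a* and *Adam1b* had the same 33 bases, as did *Adam20* and *Adam39*.

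Of the 83 genes, 65 had at least 1 count in the 6 libraries, 52 had a count in every library, and 48 passed the filter on low counts and were tested. The tested genes were 12 ADAMs, 15 ADAMTSs, 5 ADAMTSLs, 12 MMPs and 4 TIMPs. The 18 genes without a count were 12 ADAMs, 5 MMPs (*Mmp1b*, *Mmp7*, *Mmp10*, *Mmp20* and *Mmp21*) and *Adamts16*, and a count of 0 allows up to 3 counts in a library. The 4 neighbouring genes *Adam24*, *Adam25*, *Adam20* and *Adam39* on chromosome 8 (40675077 to 40827037) had no count in any library, and neither had *Adam26a*, *Adam26b* and *Adam34* further along the same chromosome (43519762 to 43710049). In the cluster of 9 MMPs on chromosome 9 (7272514 to 7699585), *Mmp13* and *Mmp3* were tested. The others there had 77 counts (*Mmp12*), 20 (*Mmp27*), 4 (*Mmp8*) or 0 over the 6 libraries. *Adamts1* and *Adamts5* lie next to each other on chromosome 16, and both were tested.

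The libraries held 20369746 to 32734485 counts, which sets the counting error of the low genes. Of these counts, 23.6% to 28.8% were on mitochondrial genes (24.7% ± 1.55 with vehicle and 27.5% ± 1.46 with Tributyrin, SD, n = 3, two-sided exact permutation p = 0.2, where 0.1 is the smallest possible). *Xist* had 0 to 6 counts and the Y-linked *Ddx3y* 1571 to 2559 in every library. The 7 markers listed for ventricular cardiomyocytes summed to 53119 to 55101 CPM with vehicle and 49434 to 55672 CPM with Tributyrin. CPM is the count scaled by the TMM library size. The list is not limited to genes of the ventricle, so its sum cannot check the ventricular label. Atrial cardiomyocyte markers were also present, at 182, 172 and 53.8 CPM in vehicle mice 1, 2 and 3 and at 31, 64.4 and 46.3 CPM in the Tributyrin mice. Vehicle mice 1 and 2 stood apart in these markers, so the genes with an unadjusted p under 0.05 are also given without them. That leaves 1 vehicle mouse against 3, the spread then comes from the Tributyrin mice alone, and the lone mouse is assumed to vary like them, so only the size is read.

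Levels between genes are compared as CPM per kilobase of merged exon, over all 6 mice. The highest were *Timp2* at 29.6 ± 3.31 CPM per kb, *Mmp15* at 29.2 ± 1.77, *Adamtsl5* at 22.2 ± 2.93, *Timp3* at 21.9 ± 4.71 and *Adam9* at 16.8 ± 1.36 (SD, n = 6). *Timp2* and *Mmp15* differed by less than the spread between mice and stood at percentiles 92.5 and 92.4 of the 14133 genes tested. *Mmp2* (13.1 ± 2.25), *Adamtsl4* (12 ± 1.40), *Timp4* (11.3 ± 4.06) and *Adam10* (9.74 ± 1.11) followed, and from *Mmp2* on each was within the spread of the gene before it. *Adamts1* was the highest ADAMTS, at 6.89 ± 1.14 CPM per kb. The lowest tested genes were *Adamts19* at 0.0511 and *Adam12* at 0.0548 CPM per kb.

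**Figure D1:**
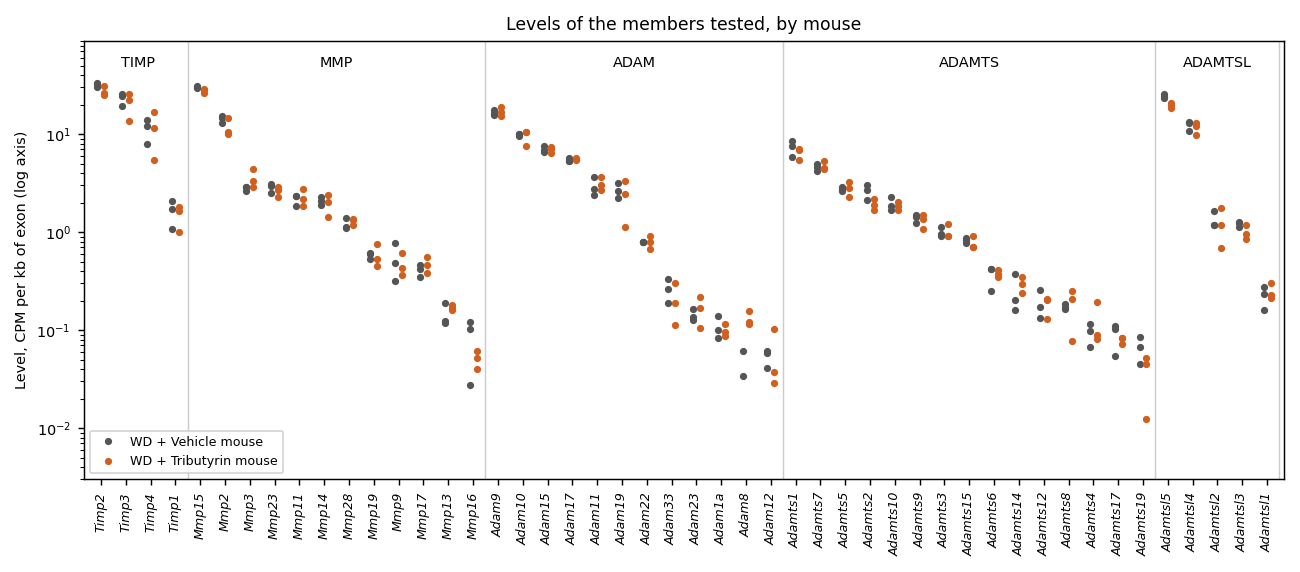
Level of the 48 tested genes in each mouse, as CPM per kb of merged exon on a log axis, ordered within each family by mean level. Grey points are the 3 WD + Vehicle mice and orange points the 3 WD + Tributyrin mice, and the vehicle mouse with 0 counts of *Adam8* has no point on the log axis. *Timp2*, *Mmp15* and *Adamtsl5* lead their families, and each family spans over an order of magnitude.

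A few genes held most of each family's level. *Mmp15* made up 52.6% of the summed MMP level, and *Mmp15* and *Mmp2* together 76.1%. *Adamtsl5* made up 60.4% of the ADAMTSL level, and with *Adamtsl4* 92.9%. *Timp2* made up 46.1% of the TIMP level and *Adam9* 36.5% of the ADAM level. The ADAMTS level was spread most evenly, with 30% in *Adamts1* and 62.6% in its 3 highest genes. These levels depend on the length used: per kilobase of the longest transcript, *Timp3* came to 37.7, *Adam17* to 8.80 against 5.50, *Mmp14* to 3.73 against 2.02 and *Adamts9* to 2.55 against 1.36 CPM per kb, and *Timp3* then stood highest.

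No gene of these families was called with Tributyrin at a false discovery rate (FDR) of 10% or 5% by edgeR's quasi-likelihood test. The same test called 0% of all 14133 genes at either threshold, and the smallest adjusted p among the 48 genes was 0.999. DESeq2 and limma-voom called none of the members at 10% either. Over all genes, DESeq2 called 6 higher and 5 lower of the 25581 it fitted, and limma-voom 0 of 14133. DESeq2's own filter on low counts was left on, so the number of genes it adjusted over may be smaller. In edgeR, 4 of the 48 genes (8.33%) had an unadjusted p under 0.05, *Adam8* higher and *Adamtsl5*, *Adamts2* and *Timp2* lower. Of all genes tested, 4.25% did (1.97% higher and 2.28% lower). The groups did not overlap for 3 of the 48 genes (6.25%), *Adam8* higher and *Adamtsl5* and *Mmp15* lower, against 8.94% of all genes (4.34% higher and 4.61% lower). *Adam8* passed the filter on low counts only through the Tributyrin mice, so its place in both counts depends on its being higher there. Without the filter on low counts, the same test on 25581 genes called 167 of them (0.653%) at an FDR of 10%, 0.25% higher and 0.403% lower. Among these were *Adam8* (higher, adjusted p = 0.0502), *Adamts2* (lower, 0.0177) and *Adamtsl5* (lower, 0.0440). Nothing in the labels says that the mice came from separate litters or cages, and the p-values measure the spread between these mice.

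By family, the median log2 fold change of Tributyrin over vehicle was 0.0090 for the ADAMs, -0.06 for the ADAMTSs, -0.16 for the ADAMTSLs, -0.04 for the MMPs and -0.15 for the TIMPs, where the median of all genes tested was -0.0013. Values below 0 were found for 29 of the 48 genes (60.4%) and for 50.4% of all genes. Leaving out 1 mouse turned several of these medians. Without Tributyrin mouse 1 the ADAMTSL median was 0.031, the TIMP median 0.077 and that of all members tested 0.019. Without Tributyrin mouse 3 the MMP median was 0.081 and that of all members 0.027, and without vehicle mouse 1 the MMP median was 0.069. The values below 0 were split 6 of 12 among ADAMs, 8 of 15 among ADAMTSs, 4 of 5 among ADAMTSLs, 7 of 12 among MMPs and 4 of 4 among TIMPs. The median standard error of a gene was 0.17 for the 48 members and 0.12 for all genes. In tissue, fewer cells of a type and less RNA per cell cannot be told apart.

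**Figure D2:**
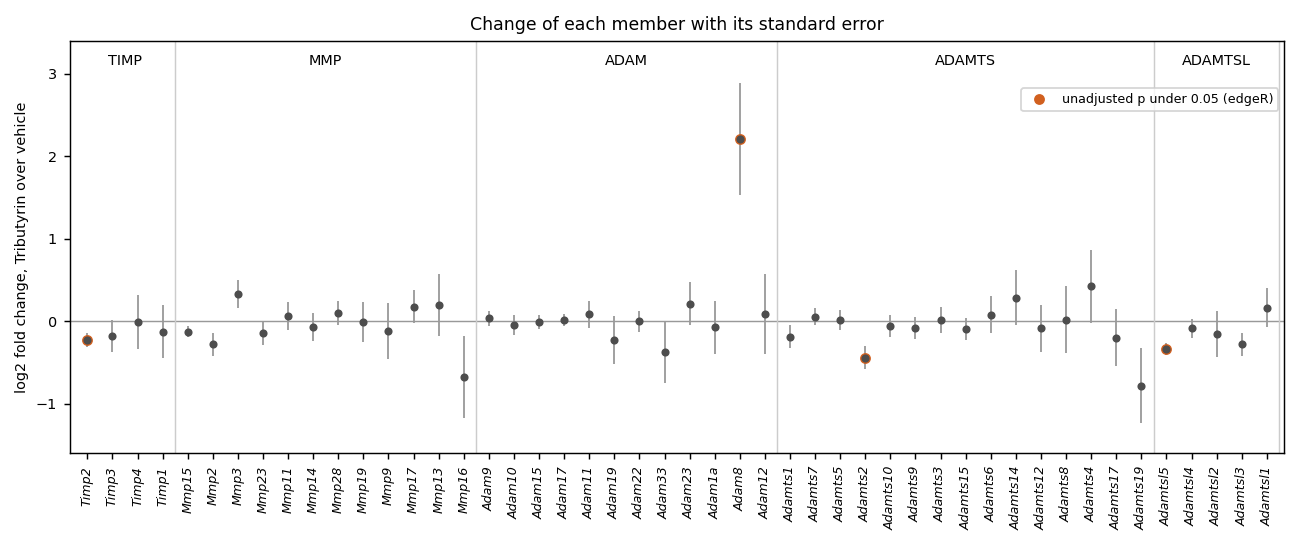
Log2 fold change of Tributyrin over vehicle for the 48 tested genes, in the order of their levels within each family, with bars of 1 standard error (edgeR, 3 mice in each group). Larger orange points mark the 4 genes with an unadjusted p under 0.05. *Adam8* lies at 2.21, all 4 TIMPs lie below 0, and most other bars cross 0.

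The ADAMTSLs held the gene with the smallest p of the 48. *Adamtsl5*, which encodes a secreted protein that binds fibrillin microfibrils, was at 111, 122 and 117 CPM in the vehicle mice and at 88.1, 93.2 and 97.7 CPM in the Tributyrin mice. The 3 Tributyrin mice were all below the 3 vehicle mice. Its log2 fold change was -0.33 with a standard error of 0.07 (edgeR, unadjusted p = 0.001, rank 10 of 14133 genes, adjusted p = 0.999), and its mean was 20.4% lower. The study used DESeq2 on the same mice and reported transcripts altered at an FDR of 10%. DESeq2 here, in a later version, called fewer genes in all than the study did, and no member at 10%. The study's figure of its most regulated transcripts shows *Adamtsl5*. The gene was thus selected on these mice, so its value is not independent evidence of its direction. It kept its side of 0.05 without each mouse in turn, at -0.36 to -0.29, and was -0.33 without the pair of atrial-rich vehicle libraries.

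*Adamtsl4*, whose protein also works on fibrillin microfibrils, was at 45.4, 54.1 and 55.7 CPM with vehicle and 40.9, 54.1 and 51.3 with Tributyrin, and the groups overlapped. Its log2 fold change was -0.09 with a standard error of 0.12. *Adamtsl3* was at 9.40 ± 0.568 against 7.71 ± 1.32 CPM (SD, n = 3), and its unadjusted p was 0.0696 in edgeR. *Adamtsl2*, at -0.16 with a standard error of 0.28, and *Adamtsl1*, at 0.16 with 0.24, varied more between mice. Summed per kilobase, the family was at 37.1, 41.7 and 40.7 CPM per kb with vehicle and at 30.3, 35.3 and 35.7 with Tributyrin, 15.3% lower on average with no overlap, and *Adamtsl5* carries most of that sum.

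Of the procollagen N-proteinases, which trim the N-propeptides of fibrillar procollagens, *Adamts2* had the largest difference. It was at 19.8, 28.2 and 25.4 CPM with vehicle and at 15.8, 20.5 and 17.8 CPM with Tributyrin. Only vehicle mouse 1 lay within the range of the Tributyrin mice. The log2 fold change was -0.44 with a standard error of 0.14 (edgeR, unadjusted p = 0.00983, adjusted p = 0.999). Without vehicle mouse 2 it was -0.32 and its unadjusted p was 0.0561 in edgeR, and without the atrial-rich pair it was -0.50.

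For the other procollagen N-proteinases the differences were smaller than their standard errors. *Adamts3* was at 5.26, 5.01 and 6.10 CPM with vehicle and 6.51, 4.92 and 5 with Tributyrin, a log2 fold change of 0.01 with a standard error of 0.16. *Adamts14* was at 0.830, 1.06 and 1.94 CPM against 1.25, 1.81 and 1.52, at 0.29 with a standard error of 0.33. The groups overlapped in both genes. Per kilobase, *Adamts2* was at 2.27 ± 0.503, *Adamts3* at 1.01 ± 0.124 and *Adamts14* at 0.270 ± 0.0835 CPM per kb (SD, n = 6), so *Adamts2* was the most abundant of the 3 in every mouse.

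The proteoglycanases, which cut versican and aggrecan, had groups that overlapped. *Adamts1* was at 45.5, 31.1 and 40.3 CPM with vehicle and 36.4, 37.1 and 28.9 with Tributyrin, a log2 fold change of -0.19 with a standard error of 0.14. Without vehicle mouse 2 it was -0.33 (edgeR, unadjusted p = 0.0245), without vehicle mouse 1 -0.054 and without Tributyrin mouse 3 -0.079. Its neighbour *Adamts5* was at 30.1, 28.4 and 31.4 CPM against 30.8, 35.5 and 24.6, at 0.02 with a standard error of 0.12. *Adamts9* was at 18.7, 21.7 and 22.6 CPM against 16.1, 22.7 and 20.7 (-0.08, standard error 0.13). *Adamts4*, at 0.324 to 0.553 CPM with vehicle and 0.392 to 0.941 with Tributyrin, was low in every mouse.

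*Adamts7*, which cleaves cartilage oligomeric matrix protein, was at 29.2, 26.2 and 31.5 CPM with vehicle and 33.7, 28.6 and 27.9 with Tributyrin, a log2 fold change of 0.06 with a standard error of 0.10. *Adamts13*, the protease of von Willebrand factor, had 1 count in all, in vehicle mouse 3. The other tested ADAMTSs ranged from -0.78 (*Adamts19*, standard error 0.45) to 0.08 (*Adamts6*, standard error 0.23).

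**Figure D3:**
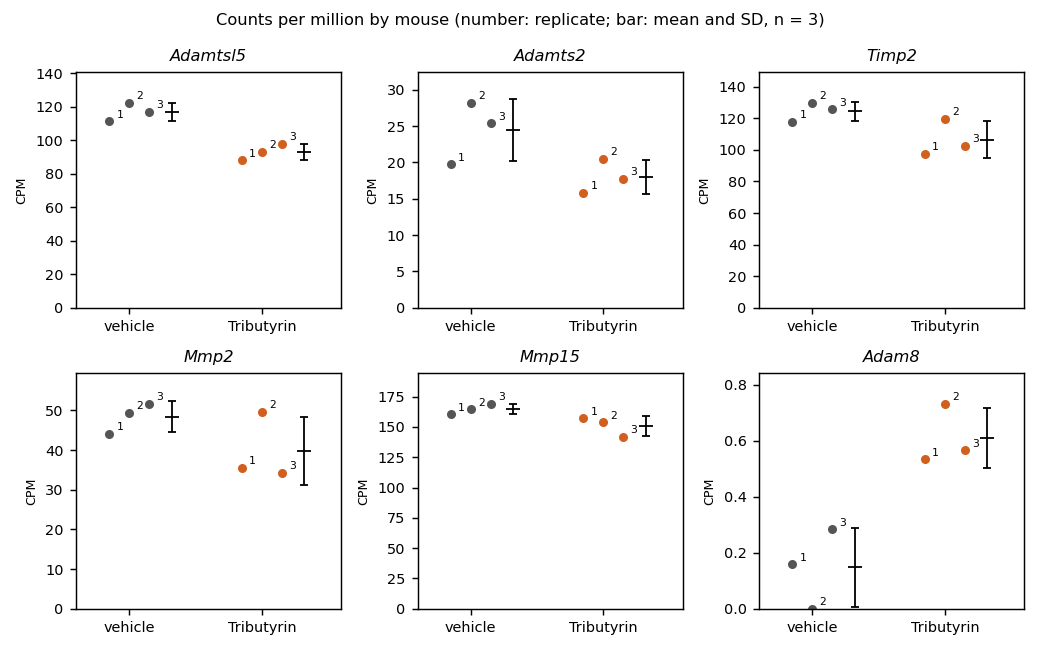
CPM of 6 genes in each mouse, on axes that start at 0, with points for mice 1 to 3 and bars for the mean and SD (n = 3). *Adamtsl5*, *Mmp15* and *Adam8* have groups that do not overlap. *Adamts2*, *Timp2* and *Mmp2* are lower on average with Tributyrin and overlap.

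Among the MMPs, the most abundant gene was *Mmp15*, a membrane-type MMP. It was at 160, 165 and 169 CPM with vehicle and 157, 154 and 142 with Tributyrin. All Tributyrin mice lay below all vehicle mice, though the nearest were only a few CPM apart. The log2 fold change was -0.13 with a standard error of 0.07 (edgeR, unadjusted p = 0.0990, adjusted p = 0.999).

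*Mmp2*, the gelatinase made mainly by fibroblasts in the heart, was at 44.1, 49.4 and 51.7 CPM with vehicle and 35.5, 49.7 and 34.3 with Tributyrin. Tributyrin mice 1 and 3 were below every vehicle mouse, and mouse 2 was within their range. Its log2 fold change was -0.28 with a standard error of 0.13 (edgeR, unadjusted p = 0.0617). It ranged from -0.47 without Tributyrin mouse 2 (unadjusted p = 0.000438 in edgeR) to -0.18 without Tributyrin mouse 3 (0.202), and was -0.20 without Tributyrin mouse 1. Its unadjusted p in edgeR was also under 0.05 without vehicle mouse 1 (0.0493) and with the replicate number as a block (0.0215). So it was with library size alone (0.0406), without the filter (0.00368) and in DESeq2 (0.0417). It was not with DESeq2-type size factors, a mean CPM of at least 1 or limma-voom, nor without vehicle mouse 2, vehicle mouse 3 or Tributyrin mouse 1. Of all genes, 4.94% were lower at that p with library size alone and 4.85% without Tributyrin mouse 2, against 2.28% in the main fit. *Mmp14*, the membrane-type MMP that activates the *Mmp2* product together with the product of *Timp2*, was at 13.5, 11.4 and 12.3 CPM against 12.2, 14.4 and 8.53 (-0.07, standard error 0.17). The ratio of *Mmp14* to *Mmp2* per kilobase was 0.173, 0.130 and 0.135 with vehicle and 0.195, 0.164 and 0.141 with Tributyrin, and these ranges overlapped.

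*Mmp3*, stromelysin-1, which cuts proteoglycans and activates other MMPs, had the highest log2 fold change of the tested MMPs. It was at 5.18, 5.18 and 4.78 CPM with vehicle and 5.16, 7.98 and 5.96 with Tributyrin. Tributyrin mice 2 and 3 were above every vehicle mouse. The log2 fold change was 0.34 with a standard error of 0.17 (edgeR, unadjusted p = 0.0763), and it was 0.14 to 0.47 without each mouse in turn.

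The MMPs of inflammatory cells were scarce. *Mmp9*, gelatinase B, was at 2.73, 1.12 and 1.70 CPM with vehicle and 1.53, 2.20 and 1.31 with Tributyrin (-0.12, standard error 0.34). *Mmp8*, the neutrophil collagenase, had 4 counts, all in vehicle mouse 1. *Mmp12*, the macrophage elastase, was at 0.237, 0.295 and 0.0946 CPM with vehicle and 0.392, 1.5 and 0.218 with Tributyrin, mostly in Tributyrin mouse 2, and was below the filter. The collagenase *Mmp13* was at 0.316, 0.501 and 0.331 CPM against 0.427, 0.453 and 0.479, with groups that overlapped.

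The main sheddases were nearly level between the groups. *Adam17*, which releases TNF and ligands of the EGF receptor, was at 38.1, 41.1 and 37.9 CPM with vehicle and 38.7, 40.5 and 39.6 with Tributyrin. Of the tested members with a count in every mouse it varied least, with a ratio of 1.08 between its highest and lowest mouse. Its log2 fold change was 0.02 with a standard error of 0.07. *Adam10*, which cleaves Notch and cadherins, was at 46.7, 49 and 50 CPM against 51.9, 51.9 and 37.4 (-0.04, standard error 0.12), and only Tributyrin mouse 3 was low. *Adam9*, the most abundant ADAM, was at 64.5, 72.5 and 68.4 CPM against 69.9, 78.1 and 62.7 (0.04, standard error 0.09).

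*Adam12* and *Adam19*, sheddases known from growth factor release in the growing or loaded heart, were lower and more variable. *Adam19* was at 18.8, 22.6 and 16.1 CPM with vehicle and 17.6, 23.5 and 8.05 with Tributyrin, a log2 fold change of -0.22 with a standard error of 0.29. As for *Adam10*, Tributyrin mouse 3 had the lowest value. *Adam12* was at 0.435, 0.648 and 0.615 CPM against 0.392, 1.08 and 0.305 (0.09, standard error 0.48). Of the remaining ADAMs, *Adam15* was at 42.9 ± 3.08 against 42.6 ± 2.97 CPM (SD, n = 3).

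*Adam8*, an ADAM of leukocytes, was the 1 gene of the 48 that was higher at an unadjusted p under 0.05. It had 4, 0 and 6 counts in the vehicle mice and 15, 21 and 13 counts in the Tributyrin mice, or 0.158, 0 and 0.284 against 0.534, 0.732 and 0.566 CPM. The 3 Tributyrin mice were above the 3 vehicle mice. The log2 fold change was 2.21 with a standard error of 0.68 (edgeR, unadjusted p = 0.00810, adjusted p = 0.999), and it rests on 59 counts in all. Its vehicle counts alone would not have passed the minimum count of 10, so that it was tested at all depends on the group where it is high. It was 1.48 to 3.07 without each mouse in turn. Without vehicle mice 1 and 2, against the 1 vehicle mouse left, it was 1.09. A filter on a mean CPM of at least 1 leaves it out. Macrophage markers summed to 150 to 186 CPM with vehicle and 138 to 189 with Tributyrin, with 7 of 8 at log2 fold changes below 0. Neutrophil markers summed to 0.994 to 1.90 against 0.566 to 1.53 CPM, with *Camp* at 0 in every library. Neither list's range stood apart between the groups.

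All 4 TIMPs had a log2 fold change below 0, and 1 had an unadjusted p under 0.05. *Timp2*, an inhibitor that also takes part in the activation of the *Mmp2* product, was at 118, 130 and 126 CPM with vehicle and 97.3, 120 and 102 with Tributyrin. Tributyrin mouse 2 lay within the range of the vehicle mice. The log2 fold change was -0.22 with a standard error of 0.09 (edgeR, unadjusted p = 0.0283, adjusted p = 0.999). Without Tributyrin mouse 1 it was -0.16 (unadjusted p = 0.124 in edgeR), without Tributyrin mouse 3 -0.20 (0.0691), without vehicle mouse 2 -0.19 (0.0980) and without vehicle mouse 3 -0.22 (0.0752). Against the 1 vehicle mouse left without the atrial-rich pair it was -0.24, as large as before.

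*Timp3*, the inhibitor that stays bound to the matrix, was at 159, 199 and 209 CPM with vehicle and 111, 181 and 210 with Tributyrin. *Timp4*, the TIMP known for its abundance in the heart, was at 46.8, 82.5 and 70.7 CPM against 32.1, 69.0 and 98.3. *Timp1*, the TIMP most often induced in injury, was at 0.948, 1.53 and 1.85 CPM against 0.890, 1.46 and 1.61. The groups overlapped in all 3 genes, whose log2 fold changes were -0.18, -0.01 and -0.13 with standard errors of 0.19, 0.33 and 0.32. Mouse 1 was the lowest of its group for each of the 4 TIMPs, in both groups. *Timp3* and *Timp4* lie within *Syn3* and *Syn2* on the opposite strand, which overlap 21.3% and 1.53% of their exons, and whether the counting used strand is not stated.

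The TIMP level varied more between mice than the MMP level did. Summed per kilobase, the TIMPs were at 58.8, 73.5 and 72.0 CPM per kb with vehicle and 45.0, 66.3 and 70.6 with Tributyrin. The MMPs were at 56.1, 57.6 and 60.0 against 52.6, 58.7 and 48.9. The ratio of TIMP to MMP was therefore 1.05, 1.28 and 1.20 with vehicle and 0.856, 1.129 and 1.44 with Tributyrin, with means of 1.17 ± 0.116 and 1.14 ± 0.294 (SD, n = 3). Tributyrin mice 1 and 3 had the lowest and the highest ratio of the 6 mice. The ADAMs summed to 43.9 to 49.1 CPM per kb with vehicle and 41.1 to 51.3 with Tributyrin, and the ADAMTSs to 21.8 to 25.4 against 20.3 to 23.8.

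**Figure D4:**
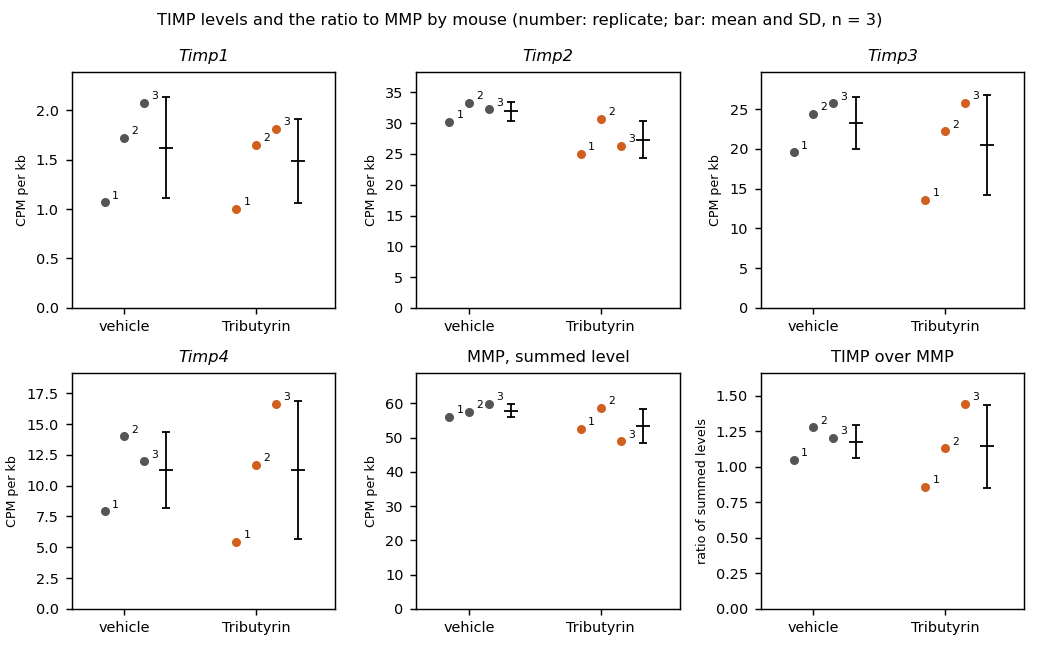
Level of each TIMP and of all MMPs as CPM per kb of merged exon, and the ratio of the summed TIMP to the summed MMP level, in each mouse, with bars for the mean and SD (n = 3). Mouse 1 is lowest in its group for every TIMP. The ratio spans 1.05 to 1.28 with vehicle and 0.856 to 1.44 with Tributyrin.

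Genes that work with these families were read from 5 lists. With the filter on low counts, edgeR called none of their tested genes at an FDR of 10% or 5%. Without it, 6 ADAMTS substrates, 4 collagens or other fibres and 1 of the related proteases and ADAMTS-like genes were called at 10%. No regulator or shed substrate was, and that setting called 0.653% of all 25581 genes. With the filter, none was higher at an unadjusted p under 0.05, where 2.28% of all genes tested were lower. Among 21 regulators and activators, which include convertases, plasmin activators and partners of *Adam10* and *Adam17*, 1 was lower at that level, and the median log2 fold change was -0.05. This was *Rhbdf1*, which brings the *Adam17* product to the cell surface, at 23.7, 24.6 and 23.2 CPM with vehicle and 19.6, 21.1 and 22.1 with Tributyrin (-0.19, standard error 0.08). Of 30 shed substrates of *Adam10* and *Adam17* none was past 0.05 in either direction, and their median was -0.02.

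The matrix lists had lower medians. Among 13 related proteases and ADAMTS-like genes the median was -0.21 and 2 were lower at an unadjusted p under 0.05. *Bmp1*, the procollagen C-proteinase, was at 26.2, 25.9 and 25.9 CPM with vehicle and 21.4, 23.2 and 23.1 with Tributyrin, without overlap (-0.21, standard error 0.08). *Papln*, the ADAMTS-like papilin, was at 12.6, 19.6 and 15.8 against 9.57, 12.7 and 12.2 CPM (-0.48, standard error 0.17).

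Of 17 substrates of ADAMTS proteases, 4 were lower at that level and the median was -0.26. These were *Ltbp2* (-1.19, standard error 0.36), *Thbs1* (-0.68, standard error 0.18), *Vcan* (-0.62, standard error 0.24) and *Fbln2* (-0.26, standard error 0.09). *Thbs1* is also among the genes the study selected on these mice. Versican (*Vcan*), the main proteoglycan cut by *Adamts1*, *Adamts5* and *Adamts9*, was at 13.1, 21.1 and 21 CPM with vehicle and 8.47, 16.5 and 10.8 with Tributyrin, and the groups overlapped.

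Of 13 collagens and other fibres, 11 had log2 fold changes below 0 and the median was -0.30. The 4 at an unadjusted p under 0.05 were *Col1a1* (-0.46, standard error 0.17), *Col5a1* (-0.40, standard error 0.14), *Col5a2* (-0.40, standard error 0.16) and *Col4a1* (-0.26, standard error 0.12). *Col1a1*, the chain of type I collagen whose propeptide the *Adamts2* product removes, was at 76.7, 96.1 and 95.3 CPM with vehicle and 53.2, 86.7 and 54.3 with Tributyrin. As for *Mmp2*, Tributyrin mice 1 and 3 were below every vehicle mouse and mouse 2 was within their range. Fibroblast markers summed to 2248 to 2354 CPM with vehicle and 2028 to 2527 with Tributyrin. Of these markers, 5 of 8 had log2 fold changes below 0, and none was at 0 CPM. They include the collagens *Col1a1* and *Col1a2* and the ADAMTS substrate *Dcn*, so they share genes with the matrix lists. Markers of valve interstitial cells, which include the ADAMTS substrates *Comp* and *Hapln1*, summed to 35.5 to 46.9 against 17.8 to 42.4 CPM. Of these, 4 of 6 were below 0. The part of these cells in the matrix values was not tested.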

How the data were processed

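RNA was extracted from heart ventricle and sequenced as stranded mRNA libraries with single-end reads. The authors deposited raw counts per Ensembl gene for each library. Per the submitters' processing notes, the tools were cutadapt 1.13, STAR, HTSeq 0.6.1p1 and DESeq2 1.14.1, with the mm10 build. Which annotation release was counted, and whether by strand, is not stated in the sources used. Samples were grouped by their labels.

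Symbols, positions and exons were taken from GENCODE M21 (GRCm38), in which 54165 of the 54232 identifiers were found. No line lacked a gene (0 lines). Every pair of libraries differed by more than sampling noise (chi-square per degree of freedom 6.67 to 28.2). The members, lists and naming rule were chosen with earlier results of these data known. Genes named with values by mouse are those past an FDR of 10% (none) or with an unadjusted p under 0.05, the 2 highest of each family, the TIMPs, *Adamtsl5*, and members known from the heart or from procollagen, proteoglycan or VWF processing. Other genes were named after their values were seen.

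The groups were compared with edgeR's quasi-likelihood test (edgeR 4.0.16, R 4.3.3) on the 6 libraries, with TMM scaling, filterByExpr (minimum count 10, minimum total 15), no covariate and Benjamini-Hochberg adjustment over all 14133 genes. The standard errors given were derived from that test, as the size of the log2 fold change over the square root of its F statistic. Other tools were DESeq2 1.42.0, limma 3.58.1, Python 3.11.15, matplotlib 3.10.9, pandas 2.3.3 and numpy 2.4.6. The code was tested on simulated data. The alternatives tried were no filter, a filter on mean CPM of at least 1, library size alone, size factors of the DESeq2 type, DESeq2, limma-voom, the replicate number as a block, the longest transcript's length, and leaving out each mouse. Leaving out the atrial-rich vehicle libraries was added after the data were seen. Zinc-binding motifs were searched as codons in the coding sequences, since no table of proteins was used here. The sites of some genes are not reported here. The labels number the mice without stating a pairing, and none was assumed. Deviations of same-numbered mice correlated at 0.214, 0.0375 and 0.0147, which with 3 mice in each group cannot settle whether they were paired.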

Additional observations from a re-analysis of the deposited data

How the results depend on the processing

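The median standard error of a tested member was 0.17 on the log2 scale, and members under 1 CPM rest on few counts. Without the filter on low counts, members called at an FDR of 10% came to 1 higher and 2 lower, and at 5% to 0 higher and 2 lower. The same setting gave 3 higher and 6 lower of 65 members at an unadjusted p under 0.05, where 2.1% and 2.5% of all genes were past it, and 2 higher without overlap. With a mean CPM of at least 1, no member was higher at an unadjusted p under 0.05 (0) or by lack of overlap (0), since *Adam8* was left out. DESeq2 gave 2 higher members at that p (*Adam8* and *Mmp12*, 0.837% of all genes) and library size alone 6 lower (4.94% of all genes, against 2.28% with TMM). Leaving out the atrial-rich vehicle libraries sets 1 vehicle mouse against 3, so no count of members past a p is read from it. Leaving out each mouse in turn gave 1 to 2 higher and 2 to 5 lower at an unadjusted p under 0.05. In those fits 1.11% to 4.71% of all genes were higher and 1.52% to 4.85% lower. The 5 lower came without Tributyrin mouse 2 (4.85%) and without vehicle mouse 1 (2.62%). DESeq2, limma-voom and size factors of the DESeq2 type called 0 members at an FDR of 10%. The cause of these differences was not tested beyond the genes each setting keeps.

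With the replicate number as a block, 0 members were called at an FDR of 10% or 5%, and at an unadjusted p under 0.05 there were 1 higher (2.27% of all genes) and 4 lower (2.9%), with *Mmp2* beside *Adamtsl5*, *Adamts2* and *Timp2*. Whether the replicate numbers pair the mice is not stated in the labels.

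The direction of 16 named members turned under some alternative. With library size alone it was -0.034 for *Adam9*, -0.053 for *Adam17*, -0.014 for *Adamts7*, -0.0495 for *Adamts5* and -0.058 for *Adamts3*, and with limma-voom -0.10 for *Adam12*. Without each mouse in turn the range was -0.046 to 0.11 for *Adam9*, -0.12 to 0.10 for *Adam10*, -0.00065 to 0.059 for *Adam17*, -0.57 to 0.10 for *Adam19*, -0.69 to 0.38 for *Adam12*, -0.027 to 0.12 for *Adamts7*, -0.11 to 0.15 for *Adamts5*, -0.19 to 0.054 for *Adamts9*, -0.13 to 0.10 for *Adamts3* and -0.11 to 0.63 for *Adamts4*. It was -0.17 to 0.031 for *Adamtsl4*, -0.25 to 0.11 for *Mmp14*, -0.40 to 0.29 for *Mmp9*, -0.37 to 0.053 for *Timp3*, -0.40 to 0.33 for *Timp4* and -0.34 to 0.10 for *Timp1*. *Adamtsl5*, *Adamts2*, *Timp2*, *Adam8*, *Mmp15*, *Mmp2* and *Mmp3* kept their direction under each alternative run on them.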
